A study of Mus musculus with 4 samples.

Results

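The genes described here build the motile cilium. They are 40 genes for the axoneme and for its transcriptional control, listed by gene symbol. The rule itself uses no measured value, but the list was chosen with earlier results of these data known. All 40 were represented by at least 1 transcript cluster with a single gene symbol, among 19938 genes represented in this way on the array. Each of 4 sorted mouse cell populations was read on 1 array, and the values are log2 signals. The ESC-derived cells came from a 129SVEV embryonic stem cell (ESC) line with GFP knocked in at Lmx1a, were grown as floating aggregates in serum-free medium with FGF8b and SHH in the first days, proteins that induce midbrain and floor plate, and were sorted on day 9. Their GFP+ fraction was divided by surface CORIN into CORIN+LMX1A::GFP+ cells and, as their counterpart, CORIN-LMX1A::GFP+ cells, called ESC-derived CORIN+ and CORIN- cells below. The fetal cells were taken at E11.5 from the ventral midbrain (VM) of C57BL/6N mice and divided by CORIN alone, and the number of fetuses pooled is not given in the sources used here. The protease CORIN marks the surface of the floor plate, the ventral midline of the neural tube, and progenitors of midbrain dopaminergic neurons express the homeodomain factor LMX1A. Since no population has a replicate, no difference below has an error or a test. Strain, culture and the sort for GFP cannot be told apart in any value that sets ESC-derived cells against fetal cells, and fewer cells of a type cannot be told apart from less RNA per cell.

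A motile cilium beats because dynein motors slide the microtubule doublets of its axoneme against each other. Outer and inner dynein arms sit on each doublet, radial spokes reach from the doublets to a central pair of microtubules, and the nexin link ties neighbouring doublets together. The arms are assembled in the cytoplasm by dedicated factors before they are carried into the cilium. FOXJ1, a forkhead factor that is expressed in the mouse floor plate, is the main activator of motile cilium genes, and RFX factors bind the X-box in the promoters of many ciliary genes. Cells of the floor plate carry cilia, and in the adult brain ependymal cells and the choroid plexus carry multiple motile or specialised cilia.

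The promoters of the members show where the X-box lies. RefSeq promoter windows of GRCm38.p6, from 250 bases before to 50 bases after the annotated start, were at hand for 35 of the 40 members, and a gene with several windows was counted once. An X-box was searched as the arms GTNNCC and GGNNAC with a spacer of 0 to 3 bases between them, a motif that reads the same on both strands. It was found in 7 of the 35 members (20.0%), in 24 of 111 further ciliary genes (21.6%) and in 777 of all 15614 genes on the array with a window (4.98%). With a spacer of exactly 2 bases the shares were 14.3% of members, 18.9% of further ciliary genes and 2.43% of all genes. The 7 matches are printed on the strand of the gene, 5′ to 3′, with the match in capitals and up to 10 bases on each side.
Rfx2 (chr17:56830959-56830984, minus strand): catagagactGTAGCCGTGGAGACtg
Zmynd10 (chr9:107547294-107547327, plus strand): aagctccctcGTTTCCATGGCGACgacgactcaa
Rsph9 (chr17:46144183-46144216, minus strand): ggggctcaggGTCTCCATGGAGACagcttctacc
Spef2 (chr15:9748836-9748870, minus strand): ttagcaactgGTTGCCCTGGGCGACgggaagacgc
Tekt4 (chr17:25471420-25471453, plus strand): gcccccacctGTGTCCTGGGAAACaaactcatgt
Mns1 (chr9:72438534-72438566, plus strand): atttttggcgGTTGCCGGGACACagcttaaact
Pifo (chr3:106001494-106001527, minus strand): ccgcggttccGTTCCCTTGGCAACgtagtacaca
In Zmynd10 the match began at the annotated start itself. It began 6 bases before the start in Rsph9 and 20 bases before it in Pifo, and 8, 15 and 34 bases after it in Spef2, Mns1 and Rfx2, whereas in Tekt4 it lay 160 bases before the start. The start of a window can be that of a shorter transcript: it lay 17041 bases inside the gene from its 5′ end in Tekt4, 13149 in Pifo, 708 in Mns1, 432 in Zmynd10 and 42 in Rsph9, and at the 5′ end itself in Rfx2 and Spef2. A forkhead motif, TGTTTAC on either strand, was present in 2 of 35 members, Iqub and Ak7 (5.71%), and in 3.54% of all genes. It does not overlap the X-box in its letters.

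Members were ranked for printing by the sum of their log2 folds over both pairs. Jhy (2.87) came first, then Dnah11 (1.98), Dnajb13 (1.95) and Armc3 (1.72). The promoter windows of Dnajb13 and Dnah11, which had the highest folds of the 40 between the ESC-derived populations, are printed whole. Those of Jhy and Armc3 are not printed. Neither motif occurs in the windows of Dnajb13 and Dnah11, nor in the 3 windows of Jhy, which says only that the searched letters are not there.
Dnah11 (chr12:118198994-118199293, minus strand): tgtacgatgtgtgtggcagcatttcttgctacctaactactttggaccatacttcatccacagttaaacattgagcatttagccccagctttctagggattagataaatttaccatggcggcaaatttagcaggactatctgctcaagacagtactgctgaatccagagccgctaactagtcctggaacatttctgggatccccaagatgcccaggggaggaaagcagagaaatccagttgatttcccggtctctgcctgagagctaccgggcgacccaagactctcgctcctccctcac
Dnajb13 (chr7:100514766-100515065, minus strand): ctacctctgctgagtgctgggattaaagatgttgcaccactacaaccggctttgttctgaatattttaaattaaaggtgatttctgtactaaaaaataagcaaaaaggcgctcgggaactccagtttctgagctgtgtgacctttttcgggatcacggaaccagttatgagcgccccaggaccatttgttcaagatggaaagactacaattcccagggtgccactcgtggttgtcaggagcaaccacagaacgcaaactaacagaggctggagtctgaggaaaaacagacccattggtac
The folds between the ESC-derived populations, described next, were set beside the matches without a test. Of the 7 members with a match, 1 was at least 2-fold higher in ESC-derived CORIN+ cells and their median log2 fold was 0.49, whereas 10 of the 28 members without a match were, with a median of 0.64. Of the 5 members without a window, 4 were at least 2-fold higher (Foxj1, Nme5, Rsph4a and Armc2), so this count leaves them out.

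Motile cilium genes were higher in ESC-derived CORIN+ cells than in ESC-derived CORIN- cells as a group. A level at least 2-fold higher was seen for 15 of the 40 members (37.5%), against 75 of all 19938 genes (0.376%), and 0 members were at least 2-fold lower, against 0.522% of all genes. The sign of the log2 fold was positive in 39 of 40 members, against 50.5% of all genes. The median log2 fold of the members was 0.74 (1.67-fold), and that of all genes was 0.0021 with a scaled median absolute deviation of 0.157. The 15 members made up 20.0% of the 75 genes that were at least 2-fold higher, and 16 members were among the 100 genes with the highest fold. Because the list was chosen with earlier results of these data known, these shares describe the list and are not independent support. Among 131 further ciliary genes, described below, 4 (3.05%) were at least 2-fold higher. The members described in most detail below are Dnajb13, Dnah11, Armc3, Enkur, Nme5 and Rsph4a, whose folds ranked between 5 and 20 among all genes.

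**Figure D1:**
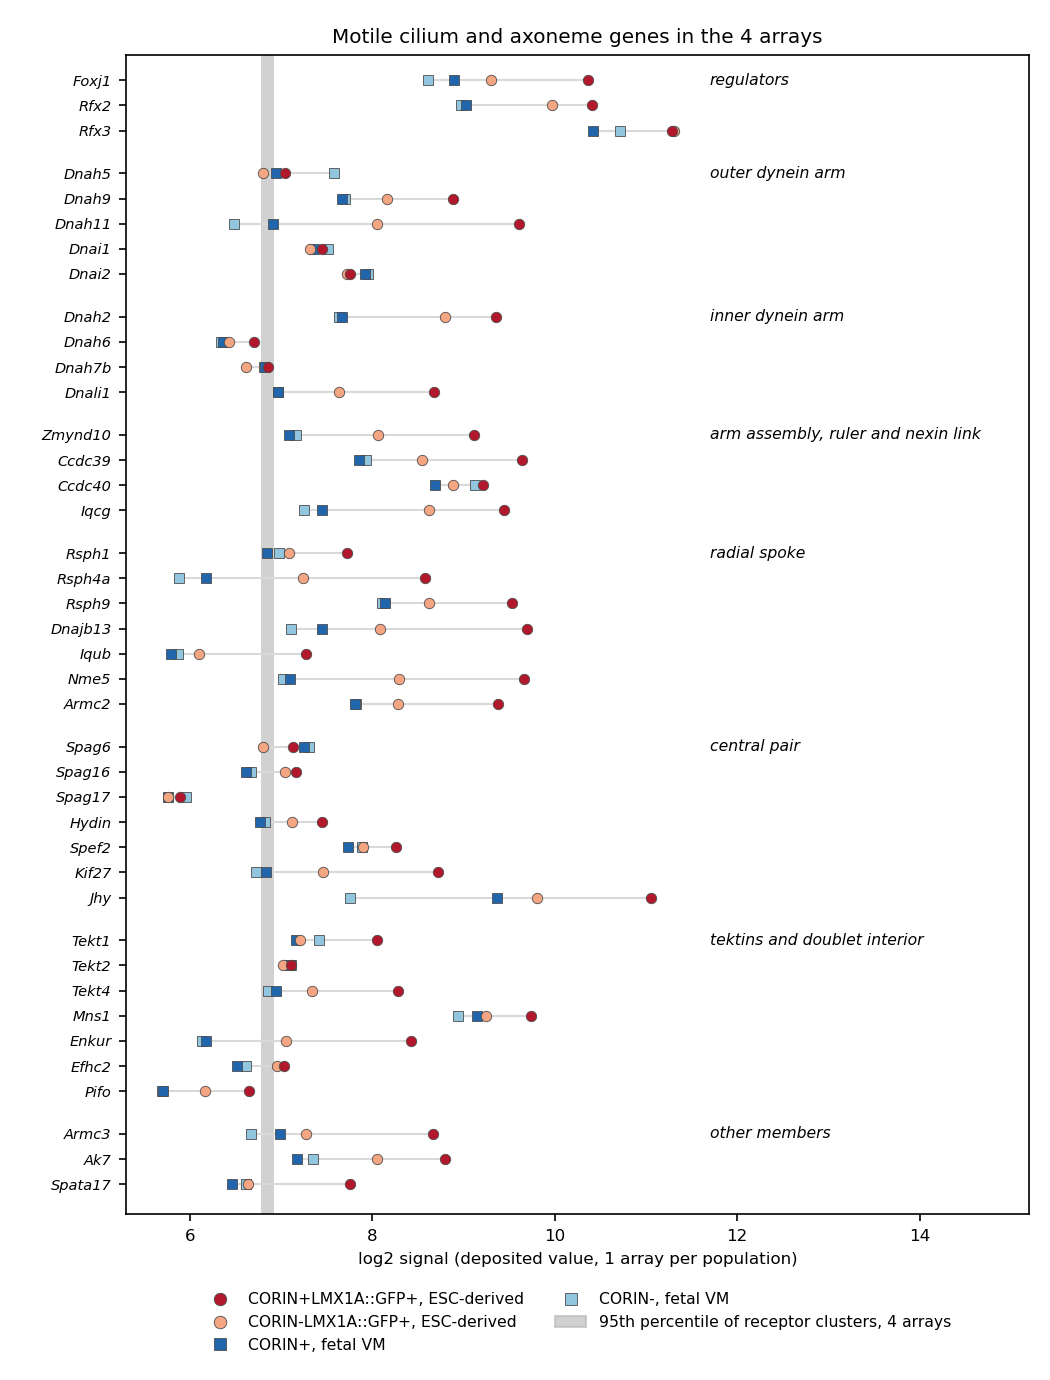
Log2 signals of the 40 motile cilium and axoneme genes (rows, grouped by role) in the 4 arrays (points; horizontal axis, log2 signal), with the range over arrays of the 95th percentile of olfactory, vomeronasal and trace amine receptor clusters as the grey band. The points of ESC-derived CORIN+ cells lie farthest right in 34 of 40 rows.

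The 3 transcriptional regulators lay above the receptor clusters described below, a yardstick for dim signals, in all 4 arrays. The log2 signals of Foxj1, the main activator of motile ciliogenesis, were 10.37 in ESC-derived CORIN+ cells and 9.30 in ESC-derived CORIN- cells, with fetal values of 8.90 in CORIN+ and 8.61 in CORIN- cells. Foxj1 was therefore 2.09-fold higher in ESC-derived CORIN+ than CORIN- cells and 1.21-fold higher in fetal CORIN+ than CORIN- cells, and both ESC-derived values were above both fetal values. Its fold ranked 56 among all genes in the ESC-derived pair. Rfx2, an RFX factor needed for ciliated cells, had log2 signals of 10.41 and 9.97 in ESC-derived CORIN+ and CORIN- cells, and 9.03 and 8.98 in fetal CORIN+ and CORIN- cells, a difference of 1.36-fold in the ESC-derived pair, against 1.04-fold in the fetal pair. Rfx3, a related factor of ciliated cells, read 11.28 in ESC-derived CORIN+ cells and 11.31 in ESC-derived CORIN- cells, with fetal values of 10.41 in CORIN+ and 10.71 in CORIN- cells, and it was the only member with a negative log2 fold in the ESC-derived pair (-0.02). Its log2 fold in the fetal pair was -0.30.

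Of the 5 outer dynein arm genes, 1 passed 2-fold in the ESC-derived pair. Dnah11, an outer arm heavy chain, read 9.61 in ESC-derived CORIN+ cells and 8.05 in ESC-derived CORIN- cells, with fetal values of 6.91 in CORIN+ and 6.49 in CORIN- cells. This gene was 2.94-fold higher in ESC-derived CORIN+ than CORIN- cells, rank 9 of all genes, and 1.34-fold higher in fetal CORIN+ than CORIN- cells. The 4 values descended in that order, and the fetal CORIN- value lay under the 95th percentile of receptor clusters described below. Dnah9, a heavy chain of the distal outer arm, had log2 signals of 8.89 and 8.16 in ESC-derived CORIN+ and CORIN- cells, and 7.67 and 7.70 in fetal CORIN+ and CORIN- cells, which is 1.65-fold higher in ESC-derived CORIN+ than CORIN- cells and -0.04 on the log2 scale in the fetal pair. Dnah5, the third heavy chain, behaved differently, with 7.05 in ESC-derived CORIN+ cells and 6.80 in ESC-derived CORIN- cells, with fetal values of 6.94 in CORIN+ and 7.58 in CORIN- cells. Its log2 fold was 0.25 in the ESC-derived pair, against -0.64 in the fetal pair, the lowest fetal value of the 40 members. The intermediate chains Dnai1 and Dnai2 were nearly level, with ESC-derived log2 folds of 0.13 and 0.03 and signals between 7.32 and 7.96 in the 4 arrays.

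Of the 4 inner dynein arm genes, 1 passed 2-fold in the ESC-derived pair. Dnali1, the light intermediate chain of inner arms, gave 8.67 in ESC-derived CORIN+ cells and 7.63 in ESC-derived CORIN- cells, with fetal values of 6.97 in CORIN+ and 6.97 in CORIN- cells, and was 2.06-fold higher in ESC-derived CORIN+ than CORIN- cells with no difference to 2 decimals in the fetal pair. The heavy chain Dnah2 had log2 signals of 9.36 and 8.80 in ESC-derived CORIN+ and CORIN- cells, and 7.67 and 7.63 in fetal CORIN+ and CORIN- cells, a 1.48-fold difference in the ESC-derived pair. Both ESC-derived values of Dnah2 exceeded both fetal values by more than 1 log2 unit. The heavy chains Dnah6 and Dnah7b were dim, at log2 signals from 6.34 to 6.86, with ESC-derived log2 folds of 0.27 and 0.24. Dnah7b is uncertain, since 2 further clusters carry the symbols of Dnah7a, Dnah7b and Dnah7c together. The log2 folds of these shared clusters were 0.26 and 0.03 in the ESC-derived pair.

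Of the 4 genes for assembling the arms, for spacing them along the doublet and for the nexin link, 2 passed 2-fold in the ESC-derived pair. Zmynd10, a factor for dynein arm assembly, read 9.11 in ESC-derived CORIN+ cells and 8.06 in ESC-derived CORIN- cells, with fetal values of 7.09 in CORIN+ and 7.16 in CORIN- cells, which is 2.07-fold in the ESC-derived pair, against -0.07 on the log2 scale in the fetal pair. Ccdc39, a partner in the molecular ruler that sets the spacing of inner arms and spokes, read 9.64 and 8.54 in ESC-derived CORIN+ and CORIN- cells, and 7.85 and 7.93 in fetal CORIN+ and CORIN- cells, and was 2.14-fold higher in ESC-derived CORIN+ than CORIN- cells. Its partner in the ruler, Ccdc40, had signals of 9.21 and 8.88 in ESC-derived CORIN+ and CORIN- cells, and 8.69 and 9.13 in fetal CORIN+ and CORIN- cells. Ccdc40 differed by 1.26-fold in the ESC-derived pair and had a log2 fold of -0.44 in the fetal pair, so the fetal CORIN- value was close to the ESC-derived CORIN+ value. Iqcg, which belongs to the nexin link, was 1.77-fold higher in ESC-derived CORIN+ than CORIN- cells and 1.15-fold higher in fetal CORIN+ than CORIN- cells, with signals of 9.44 and 8.62 in ESC-derived CORIN+ and CORIN- cells, and 7.45 and 7.26 in fetal CORIN+ and CORIN- cells.

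The radial spoke genes had the highest median of the role groups. Of 7 members, 5 were at least 2-fold higher in ESC-derived CORIN+ than CORIN- cells, and the median log2 fold was 1.17 (2.25-fold). Dnajb13, a spoke protein, read 9.70 in ESC-derived CORIN+ cells and 8.08 in ESC-derived CORIN- cells, with fetal values of 7.45 in CORIN+ and 7.11 in CORIN- cells, which is 3.06-fold higher in ESC-derived CORIN+ cells, rank 5 of all genes and the highest fold of the 40 members, and 1.26-fold higher in fetal CORIN+ cells. Nme5, also a spoke protein, read 9.66 in ESC-derived CORIN+ cells and 8.29 in ESC-derived CORIN- cells, with fetal values of 7.10 in CORIN+ and 7.02 in CORIN- cells, and was 2.59-fold higher in ESC-derived CORIN+ cells. Rsph4a, a spoke head protein, read 8.58 in ESC-derived CORIN+ cells and 7.24 in ESC-derived CORIN- cells, with fetal values of 6.18 in CORIN+ and 5.89 in CORIN- cells, and was 2.52-fold higher in ESC-derived CORIN+ cells. All 3 had both ESC-derived values above both fetal values. Iqub, another spoke protein, read 7.27 and 6.10 in ESC-derived CORIN+ and CORIN- cells, and 5.79 and 5.87 in fetal CORIN+ and CORIN- cells, and its 2.25-fold difference rests on a CORIN- value under the 95th percentile of receptor clusters. Armc2, whose relative in the alga Chlamydomonas carries spokes into the cilium, was represented by 4 clusters, each at least 2-fold higher, from 2.15-fold to 2.82-fold. The 2.82-fold difference rests on an ESC-derived CORIN- value of 6.39, under the receptor percentile. The brightest Armc2 cluster read 9.38 and 8.28 in ESC-derived CORIN+ and CORIN- cells, and 7.81 and 7.82 in fetal CORIN+ and CORIN- cells. The spoke head genes Rsph9 (1.88-fold) and Rsph1 (1.55-fold) were under 2-fold in the ESC-derived pair. Rsph9 had log2 signals of 9.53 and 8.62 in ESC-derived CORIN+ and CORIN- cells, and 8.14 and 8.10 in fetal CORIN+ and CORIN- cells. For Rsph1 they were 7.72 and 7.08 in ESC-derived CORIN+ and CORIN- cells, and 6.85 and 6.98 in fetal CORIN+ and CORIN- cells.

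**Figure D2:**
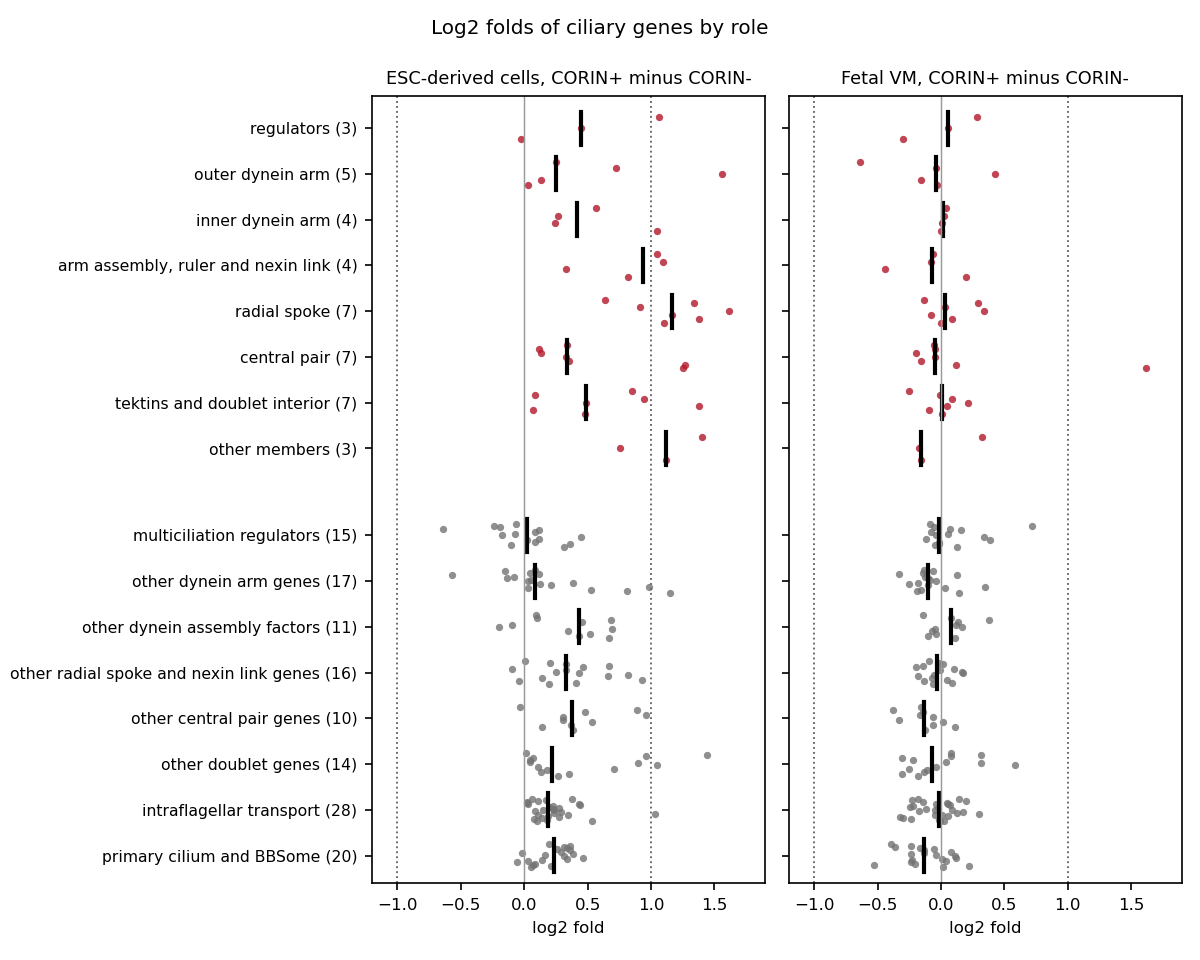
Log2 folds (horizontal axis), CORIN+ minus CORIN-, of the 40 members (red) and of 131 further ciliary genes (grey) by role (rows), with the ESC-derived pair on the left and the fetal pair on the right; each point is a gene, each black bar the median of its list, and dotted lines mark 2-fold. The medians of the members in the ESC-derived pair run from 0.25 for outer dynein arms to 1.17 for radial spokes.

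The central pair group was split. Kif27, a kinesin that binds the Fused kinase of central pair assembly, read 8.72 in ESC-derived CORIN+ cells and 7.46 in ESC-derived CORIN- cells, with fetal values of 6.84 in CORIN+ and 6.72 in CORIN- cells, and was 2.40-fold higher in ESC-derived CORIN+ than CORIN- cells, rank 24 of all genes. Jhy, whose loss gives juvenile hydrocephalus in mice, read 11.06 in ESC-derived CORIN+ cells and 9.80 in ESC-derived CORIN- cells, with fetal values of 9.37 in CORIN+ and 7.75 in CORIN- cells. It was 2.38-fold higher in ESC-derived CORIN+ than CORIN- cells, rank 26, and 3.06-fold higher in fetal CORIN+ than CORIN- cells, rank 254. Jhy was the only member past 2-fold in both pairs. The structural proteins of the central pair apparatus, Hydin, Spag6, Spag16 and Spag17, had ESC-derived log2 folds of 0.33, 0.34, 0.12 and 0.13, and signals no brighter than 7.45 in any array. A near-identical copy of Spag6, Spag6l, read 8.76 and 8.05 in ESC-derived CORIN+ and CORIN- cells, and 7.65 and 8.07 in fetal CORIN+ and CORIN- cells. The log2 fold of Spag6l was 0.71 in the ESC-derived pair, against -0.42 in the fetal pair.

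Spef2, a protein of the central pair and of sperm tails, was read by 22 clusters, which differed. The log2 fold of the brightest cluster, 0.36 in the ESC-derived pair, was the lowest of the 22. The folds of the 22 clusters ran from 1.28-fold to 3.0-fold with a median of 1.80-fold, and all 22 were positive. At least 2-fold higher were 8 of them, against 0.353% of all 28856 clusters. All 22 read the same gene, so this share does not count independent features. Of these 8, all but the cluster that read 8.52 and 7.12 in ESC-derived CORIN+ and CORIN- cells had a CORIN- value under the receptor percentile. The clusters among them that read 6.65 and 5.91 in ESC-derived CORIN+ cells were under it there as well. In the fetal pair the 22 log2 folds lay between -0.16 and 0.25. The brightest cluster read 8.26 and 7.90 in ESC-derived CORIN+ and CORIN- cells, and 7.73 and 7.89 in fetal CORIN+ and CORIN- cells.

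**Figure D3:**
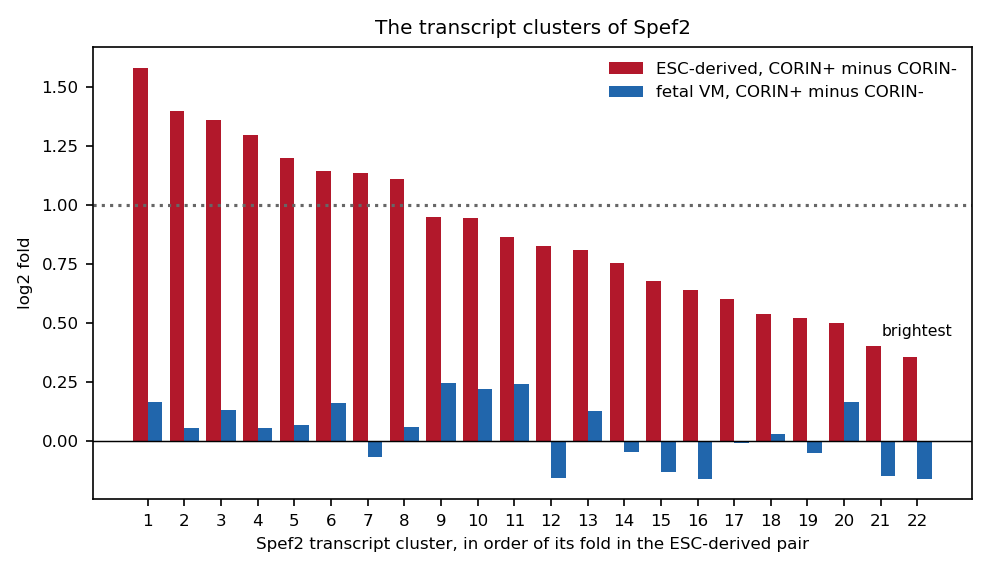
Log2 fold, CORIN+ minus CORIN- (vertical axis), of the 22 Spef2 transcript clusters (horizontal axis, in order of their fold among ESC-derived cells), with red bars for the ESC-derived and blue bars for the fetal pair and a dotted line at 2-fold. All 22 red bars lie above 0, from 0.36 to 1.58, and the blue bars lie between -0.16 and 0.25.

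Of the 7 tektins and other proteins of the doublet interior, Enkur alone passed 2-fold. Enkur, a protein inside the doublet that was first known as a calcium channel adaptor of sperm, read 8.43 in ESC-derived CORIN+ cells and 7.05 in ESC-derived CORIN- cells, with fetal values of 6.17 in CORIN+ and 6.13 in CORIN- cells. It was 2.59-fold higher in ESC-derived CORIN+ cells, rank 14, and 1.03-fold higher in fetal CORIN+ cells. The filament proteins Tekt4 and Tekt1 were under 2-fold, at 1.93-fold and 1.80-fold. Tekt4 had log2 signals of 8.28 and 7.34 in ESC-derived CORIN+ and CORIN- cells, and 6.95 and 6.86 in fetal CORIN+ and CORIN- cells. Tekt1 gave 8.05 and 7.21 in ESC-derived CORIN+ and CORIN- cells, and 7.16 and 7.41 in fetal CORIN+ and CORIN- cells. Tekt2 was level, between 7.03 and 7.11 in all 4 arrays. Mns1, which is required for sperm tails and cilia, read 9.74 and 9.25 in ESC-derived CORIN+ and CORIN- cells, and 9.15 and 8.94 in fetal CORIN+ and CORIN- cells, a 1.40-fold difference in the ESC-derived pair. Pifo differed by 1.39-fold and Efhc2 by 1.05-fold. Pifo stayed under the 95th percentile of receptor clusters in all 4 arrays.

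The remaining members were Armc3, Spata17 and Ak7, and the first 2 passed 2-fold. Armc3, an armadillo repeat protein, read 8.67 in ESC-derived CORIN+ cells and 7.27 in ESC-derived CORIN- cells, with fetal values of 6.99 in CORIN+ and 6.67 in CORIN- cells, which is 2.64-fold higher in ESC-derived CORIN+ than CORIN- cells, rank 13, and 1.25-fold higher in fetal CORIN+ cells. Spata17, named for spermatogenesis, read 7.76 and 6.64 in ESC-derived CORIN+ and CORIN- cells, and 6.46 and 6.62 in fetal CORIN+ and CORIN- cells, and was 2.17-fold higher in ESC-derived CORIN+ cells. Its values in the other 3 arrays lay close together, between 6.46 and 6.64. Ak7, an adenylate kinase of cilia, read 8.80 and 8.05 in ESC-derived CORIN+ and CORIN- cells, and 7.18 and 7.35 in fetal CORIN+ and CORIN- cells, and differed by 1.69-fold in the ESC-derived pair.

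In the fetal pair the same genes were close to level, as were most genes on the array. Of the 40 members, 1 (2.5%) was at least 2-fold higher in fetal CORIN+ than CORIN- cells (Jhy), against 3.16% of all genes, and 0 were at least 2-fold lower, against 0.456%. The log2 fold was positive in 18 members and negative in 22, with a median of -0.01 against -0.04 for all genes. In 35 of 40 members (87.5%) the values were within 1.25-fold of each other, against 81.2% of all genes. This held for 12 of the 15 members that passed 2-fold in the ESC-derived pair (80.0%). These shares lie near those of all genes, so they set the members apart from the array in neither direction. Of these 15, 4 (Rsph4a, Iqub, Enkur and Spata17) were not above the 95th percentile of receptor clusters in fetal CORIN+ cells, where a difference may not be visible. In fetal CORIN- cells the same 4 and also Dnah11, Armc3 and Kif27 were not above it. The fold was higher in the ESC-derived than in the fetal pair for 39 of 40 members, against 57.1% of all genes, with Jhy as the exception. Whether the folds of both pairs differ beyond replicate error was not tested, because neither pair has replicates. Across the 40 members the folds of both pairs correlated with r = 0.49 and rho = 0.57 (r = 0.57 without Jhy), against r = 0.07 across all genes. This is a description over genes that share the same 4 arrays.

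**Figure D4:**
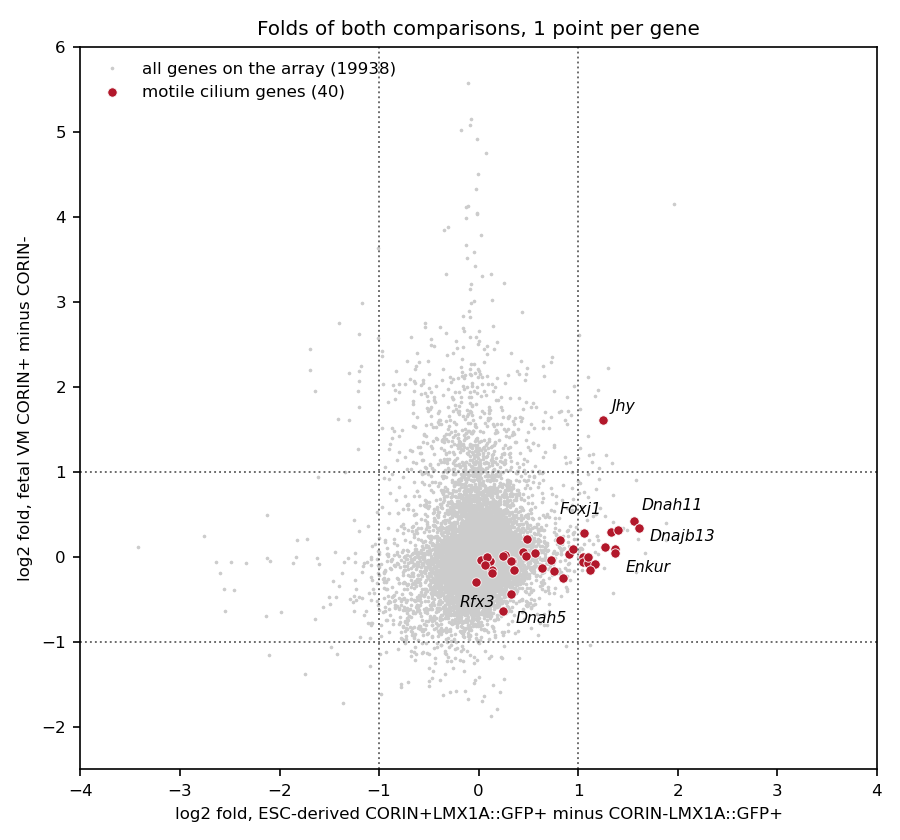
Log2 fold, CORIN+ minus CORIN-, for ESC-derived cells (horizontal axis) and fetal cells (vertical axis) over all 19938 genes (grey) and the 40 members (red), with dotted lines at 2-fold. The members spread to the right along the horizontal axis, 15 of them past 2-fold, and Jhy is the only one past both upper lines.

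Levels were also compared between the cultured and the fetal cells. The median log2 signal of the members was 8.62 in ESC-derived CORIN+ cells and 7.54 in ESC-derived CORIN- cells, against 7.10 and 7.14 in fetal CORIN+ and CORIN- cells. ESC-derived CORIN+ cells had the highest value of the 4 arrays for 34 of 40 members (85.0%), against 28.3% of all genes, and both ESC-derived values exceeded both fetal values for 31 members (77.5%), against 31.9% of all genes. Relative to fetal CORIN+ cells, 22 members were at least 2-fold higher in ESC-derived CORIN+ cells, against 2.98% of all genes, and 0 were at least 2-fold lower, against 4.37%. The median log2 fold was 1.32 (2.49-fold), and the highest values were 6.48-fold for Dnah11, 5.90-fold for Nme5 and 5.28-fold for Rsph4a, whose fetal CORIN+ value is under the 95th percentile of receptor clusters. Between ESC-derived and fetal CORIN- cells the median was 0.47 (1.39-fold), with 6 members at least 2-fold higher, against 4.54% of all genes, and 0 lower, against 3.52%. The 5 members with their highest value in fetal CORIN- cells were Dnah5, Dnai1, Dnai2, Spag6 and Spag17.

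How bright the members were was judged against 1223 clusters of olfactory, vomeronasal and trace amine receptors, genes that neural progenitors should not express. The 95th percentile of these clusters was a log2 signal between 6.78 and 6.92 in the 4 arrays. Above it lay 37 members in ESC-derived CORIN+ cells, 34 in ESC-derived CORIN- cells, and among fetal cells 29 in CORIN+ and 25 in CORIN- cells. These are shares of 92.5%, 85.0%, 72.5% and 62.5% of the members, against 73.7%, 74.3%, 74.2% and 72.6% of all genes on the same arrays, so the members' shares in the fetal cells were at or under that of all genes. This is a description of brightness and not a detection call. All 15 members past 2-fold in the ESC-derived pair were above it in ESC-derived CORIN+ cells, and 13 of them in ESC-derived CORIN- cells, the exceptions being Iqub and Spata17. Dnah6, Spag17 and Pifo were above it in neither ESC-derived array, so that a difference in these genes may not be visible. No receptor gene differed by more than 0.61 on the log2 scale in the ESC-derived pair.

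Further genes of the cilium were taken from 8 lists with 142 genes, of which 131 were measured. In the ESC-derived pair 4 were at least 2-fold higher (3.05%), against 0.376% of all genes, and 0 lower, against 0.522%. The sign was positive in 113, against 50.5% of all genes, and the median log2 fold was 0.21. Cfap44, a protein of the doublet that is tied to the tether of inner arms, read 9.06 and 7.62 in ESC-derived CORIN+ and CORIN- cells, and 6.82 and 6.51 in fetal CORIN+ and CORIN- cells, a log2 fold of 1.44. Daw1, which helps to deliver outer arms, read 7.40 and 6.25 in ESC-derived CORIN+ and CORIN- cells, and 5.93 and 5.78 in fetal CORIN+ and CORIN- cells, a log2 fold of 1.15 that rests on a CORIN- value under the 95th percentile of receptor clusters. Both had their highest value in ESC-derived CORIN+ cells. Cfap126, the polarity protein Flattop, read 8.95 and 7.91 in ESC-derived CORIN+ and CORIN- cells, and 7.39 and 6.81 in fetal CORIN+ and CORIN- cells, a log2 fold of 1.04. Ttc30b, of the intraflagellar transport particle, had signals of 8.57 and 7.54 in ESC-derived CORIN+ and CORIN- cells, and 6.94 and 6.65 in fetal CORIN+ and CORIN- cells, a log2 fold of 1.03. In the fetal pair 0 were at least 2-fold higher or lower, against 3.16% and 0.456% of all genes, and the median was -0.05, against -0.04 for all genes.

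The lists of further genes differed by role. The median ESC-derived log2 fold was 0.43 for other dynein assembly factors (11 genes), 0.38 for other central pair genes (10), 0.33 for other radial spoke and nexin link genes (16), 0.22 for other doublet genes (14) and 0.09 for other dynein arm genes (17). For genes shared with the primary cilium the medians were 0.19 for intraflagellar transport, where all 28 genes were positive, and 0.23 for the primary cilium and BBSome, where 18 of 20 were. Both were lower than the median of the members (0.74), but they lay within the range of the other axonemal lists, from 0.09 to 0.43. The regulators of multiciliated cells had a median of 0.02, with 8 of 15 positive and 0 past 2-fold. Mcidas, a switch of the multiciliated fate, read 7.61 and 7.67 in ESC-derived CORIN+ and CORIN- cells, and 7.69 and 7.78 in fetal CORIN+ and CORIN- cells, a log2 fold of -0.06. Myb, which also acts in that fate, had a log2 fold of -0.64, the lowest of the 15, and Ccno, a cyclin-like protein of that fate, had -0.19. Mcidas, Myb and Ccno were named after their values were seen and do not stand for the list. Its positive folds included 0.45 for E2f5, 0.36 for Cep63 and 0.31 for Rfx4. Gmnc and Deup1 lay under the 95th percentile of receptor clusters in both ESC-derived arrays, so a difference in them may not be visible. The 3 brightest genes of each list are given by their ESC-derived log2 folds. They were 0.31 for Rfx4, -0.17 for E2f4 and 0.45 for E2f5 among regulators of multiciliated cells, and 0.06 for Ift20, 0.02 for Ift46 and 0.38 for Ift22 in intraflagellar transport. Among primary cilium genes they were 0.29 for Ttc8, 0.20 for Bbs1 and 0.39 for Tmem67, and among arm assembly factors -0.10 for Dnaaf5, 0.43 for Cfap300 and 0.52 for Cfap298. The other axonemal lists gave 0.12 for Dnal4, 0.38 for Dnal1 and 0.98 for Odad1 (dynein arms), 0.14 for Gas8, 0.82 for Ccdc65 and 0.41 for Iqcd (spokes and nexin link), 0.31 for Stk36, 0.37 for Spef1 and 0.89 for Cfap54 (central pair), and 0.05 for Cfap20, 0.71 for Spag8 and 0.36 for Ribc1 (doublet). Of these 24 genes, 22 had a positive fold, and E2f4 and Dnaaf5 did not. Odad1, a protein of the outer arm docking complex, lay just below the limit with a log2 fold of 0.98, as did Cfap69 (0.96), Cfap52 (0.96) and Drc7 (0.93).

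Markers of other cells differed between the sorted populations as well. The counts below stand beside these shares of all genes. In the ESC-derived pair 0.376% were at least 2-fold higher and 0.522% lower in CORIN+ cells. In the fetal pair the shares were 3.16% higher and 0.456% lower. Corin, the sorted antigen, read 13.10 and 11.13 in ESC-derived CORIN+ and CORIN- cells, and 11.43 and 7.28 in fetal CORIN+ and CORIN- cells. Foxa2, a floor plate transcription factor, read 11.46 and 11.18 in ESC-derived CORIN+ and CORIN- cells, and 10.48 and 10.31 in fetal CORIN+ and CORIN- cells. Of 11 floor plate markers, 2 were at least 2-fold higher and 10 positive in the ESC-derived pair, with summed linear signals of 74508 in ESC-derived CORIN+ cells and 50450 in ESC-derived CORIN- cells. In the fetal pair 5 of the 11 were at least 2-fold higher, with sums of 35912 in CORIN+ and 18659 in CORIN- cells. The brightest floor plate markers were Slit2, with log2 folds of 0.34 and 1.47 over these pairs, and Foxa1, with 0.09 and 0.18. Of 8 pluripotency markers, 6 were lower by at least 2-fold in ESC-derived CORIN+ than CORIN- cells, with summed linear signals of 925 and 4435, against 919 and 1019 in fetal CORIN+ and CORIN- cells. The 16 neuron markers were all lower in ESC-derived CORIN+ cells, 2 of them at least 2-fold, with summed signals of 16842 in ESC-derived CORIN+ cells and 25137 in ESC-derived CORIN- cells. All 16 were lower in fetal CORIN+ cells as well, 1 of them at least 2-fold, with sums of 49980 in CORIN+ and 71778 in CORIN- cells. Of 12 mesenchyme markers 4 were lower by at least 2-fold in ESC-derived CORIN+ cells, with sums of 4295 and 6853. The part of these markers in the higher levels of the motile cilium genes was not tested. Of 11 markers of choroid plexus and ependyma, 1 was at least 2-fold higher and 2 lower in ESC-derived CORIN+ than CORIN- cells, with sums of 4030 and 3948. Ttr, which defines the choroid plexus, read 6.46 and 6.62 in ESC-derived CORIN+ and CORIN- cells, and 7.15 and 6.94 in fetal CORIN+ and CORIN- cells, under the receptor percentile in both ESC-derived arrays. Tmem212, an ependymal gene, read 6.84 and 6.74 in ESC-derived CORIN+ and CORIN- cells, and 6.81 and 6.89 in fetal CORIN+ and CORIN- cells. Folr1, Clic6 and Slc4a5 of the same list were brighter. Folr1 read 10.97 and 9.96 in ESC-derived CORIN+ and CORIN- cells, 2.02-fold higher in CORIN+ cells. Clic6 read 9.12 and 9.50 in these cells, against 6.76 and 6.44 in fetal CORIN+ and CORIN- cells. Slc4a5 read 8.91 and 10.02, against 7.19 and 6.83. In the ESC-derived pair 4 of the 11 were positive and 7 negative. Their part in the levels of the motile cilium genes was not tested. The 11 cell division genes had a median log2 fold of 0.08 with 0 past 2-fold. In the fetal pair 13 of 14 macrophage markers and 12 of 12 mesenchyme markers were at least 2-fold higher in CORIN+ cells, with macrophage sums of 22194 in CORIN+ and 1740 in CORIN- cells and mesenchyme sums of 22825 in CORIN+ and 5084 in CORIN- cells. Also at least 2-fold higher there were 4 of 7 erythroid markers, with sums of 25961 in CORIN+ and 8418 in CORIN- cells. The same held for 5 of 9 roof plate and 2 of 8 endothelial markers. In these 5 lists 0 markers were at least 2-fold lower. Their part in the near level values of the motile cilium genes in the fetal pair was not tested.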

How the data were processed

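Total RNA of 4 sorted populations was hybridized by the authors to Affymetrix whole-transcript mouse arrays, 1 array per population, and GeneSpring is the analysis program they name. The authors deposited a single table with a log2 signal per array for each of 28856 clusters of probes. The summarization of probes, the normalization and the build behind these log2 values were not given in the sources used here. The table holds no fold or p-value of the authors. Of the clusters, 21789 carry 1 gene symbol, 1621 several and 5446 none in the annotation used. Of those with 1 symbol, 21698 were matched by gene identifier to RefSeq and took its symbol, whether or not it differed. This gave 19938 genes. The cluster with the highest mean signal represented a gene, and its other clusters are described where they fall on the other side of 2-fold. The log2 fold was CORIN+ minus CORIN-, or ESC-derived minus fetal. With 1 array per group no test was made. Genes past 2-fold in either direction were counted beside the same count over all genes, and the number of arrays limits the precision. The 40 members and all lists were chosen with earlier results of these data known. All members are named. Of the further ciliary lists the genes past 2-fold and the 3 brightest of each are named, and of the markers Corin, Foxa2, Ttr and the 2 brightest of the floor plate list. Gmnc, Cfap69, Cfap52, Drc7, Mcidas, Myb, Ccno, Cep63, Deup1, Folr1, Clic6, Slc4a5 and Tmem212 were named after their values were seen. Alternatives were quantile normalization, centring, a filter on dim genes, 32 added to each linear signal, the mean over clusters, thresholds of 1.5-fold and 3-fold, and a 99th percentile of receptor clusters. The counting was tested on simulated arrays. Promoter windows came from RefSeq (GRCm38.p6), with Armc2, Foxj1, Nme5, Rsph1 and Rsph4a not matched. Python 3.11.15, numpy 2.4.6, pandas 2.3.3 and matplotlib 3.10.9 were used.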

Additional observations from a re-analysis of the deposited data

How the results depend on the processing

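No paired analysis was possible because each population has 1 array. Of the 15 members at least 2-fold higher in ESC-derived CORIN+ cells, only Armc2 has more than 1 cluster, and its 4 clusters all passed 2-fold. The mean over clusters therefore could not lose any of these 15 genes. The count stayed at 15 under quantile normalization, with the same 15 genes, and under the mean over clusters, where only a rise was possible. It was 22 at 1.5-fold, against 1.52% of all genes, and 11 with 32 added to each linear signal, which shrinks every fold by construction, and Dnali1, Iqub, Spata17 and Zmynd10 were then under 2-fold. At a threshold of 3-fold it was 1 (Dnajb13), against 0.0351% of all genes. Further ciliary genes higher in the ESC-derived pair, 4 at 2-fold, numbered 1 with 32 added, 18 at 1.5-fold and 0 at 3-fold, and 1 was lower at 1.5-fold, against 1.52% of all genes higher and 2.32% lower at 1.5-fold. In the fetal pair 1 member (Dnah5) was lower at 1.5-fold, against 2.8% of all genes, and 1 further ciliary gene (Gmnc) was higher, against 5.92%. Above the 99th percentile of receptor clusters lay 28 members in ESC-derived CORIN+ cells, 20 in ESC-derived CORIN- cells, and among fetal cells 13 in CORIN+ and 13 in CORIN- cells, against 61.4%, 62.3%, 62.1% and 59.9% of all genes on the same arrays. Centring, the dim-gene filter and the brightest cluster of each pair were run for the list counts and medians of the CORIN pairs only, and the ESC-derived against fetal comparisons only under quantile normalization and the added 32. Under quantile normalization no member past 2-fold turned to the other direction. The added 32 cannot turn a direction, and the mean over clusters could change only Armc2 among these members, so neither setting bears on this. With 1 array per population, replicate error is unknown.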
